A study of Rattus norvegicus with 8 samples.

Results

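The genes described here are those of the cilium, taken by name from a table of raw RNA-seq counts of rat astrocytes. The rule took every row whose symbol begins as an intraflagellar transport (Ift), Bardet-Biedl syndrome (Bbs), nephrocystin (Nphp), tectonic (Tctn), axonemal dynein (Dnah and Dnai), radial spoke (Rsph) or tektin (Tekt) gene, and used no measured difference between groups. It found 52 of the 28546 rows, of which 42 had 10 or more counts in at least 3 libraries and are described across groups. Of these, 27 belong to the primary cilium and 15 to the motile axoneme. The astrocytes came from Sprague Dawley rat pups and were exposed for 24 h to 12-273 BM melanoma cells or their medium. The labels call this a co-culture in one place and melanoma-conditioned medium in another, and describe medium of astrocytes put on 12-273 BM cells in another still; the sources used here do not settle it. In the control group (n = 2 libraries) the melanoma cells were labelled Scr, in the sh-APP group (n = 3) shAPPa (a hairpin directed at APP, which encodes the amyloid precursor protein), and in the anti-Abeta group (n = 3) Scr together with an antibody against amyloid beta. All groups thus share the exposure to melanoma, no group without it was analysed here, and sh-APP rests on 1 hairpin. The design asks how a hairpin against APP in the melanoma cells, or an antibody against amyloid beta, alters what the astrocytes express.

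A primary cilium is a single, non-beating projection that grows from the mother centriole of most cells, astrocytes included, and is resorbed when a cell divides. Intraflagellar transport (IFT) carries cargo along it: IFT-B trains move outward with kinesin-2, and IFT-A trains return with dynein-2. The BBSome takes membrane proteins back out of the cilium, and the transition zone at its base acts as a gate through which receptors such as Smoothened of the Hedgehog pathway pass. Motile cilia, which ependymal cells carry in tufts, add dynein arms, radial spokes and tektins that make the axoneme beat.

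Libraries held 34250464 to 47831595 counts, and 14445 genes were tested. All 13 astrocyte markers had counts, of which Gfap averaged 2911 CPM, the usual count scaled by library size, in control. Their sums across the groups are given with the other markers below. Among 14 ependymal markers in the table, Tmem212, Pifo and Sntn had no count in any library, and the summed level of the list was 27.2 to 29.7 CPM in control, most of it from Ccdc39 (21.2 CPM). Values of Foxj1, the master regulator of motile cilia, are not reported here. The anti-Abeta libraries stood furthest from each other: relative to counting noise, chi-square per degree of freedom was 45.8 for replicates 2 and 3 and 30.9 for replicates 1 and 2, and from 17.1 to 20.4 for every other pair within a group. Nothing in the labels ties the replicates to separate cultures; the p-values thus measure only the spread between these libraries, which may be technical.

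A short sequence that the rule did not use was found in a minority of the promoters, at a higher share than in promoters at large. RFX transcription factors bind the X-box, a double motif of which a single site reads GTTGCC, and are known regulators of ciliary genes. RefSeq promoters of the rat build GRCr8 (250 bases before to 50 after the start) matched 35 of the 42 genes. The single site, searched on both strands, stood in 15 of these 35 (42.9%), against 12.2% of all 33469 promoters of the same length and 12.4% of the 21851 of protein-coding genes. The paired form searched, GTTNCC and GGNAAC with 0 to 3 bases between them, stood in 1 member (Tctn1) and in 0.902% of all promoters. A paired form can contain 1 or 2 single sites. The single site was in 4 of 11 promoters of genes called higher in sh-APP, 3 of 6 called lower and 8 of 18 not called. These shares are a description of the letters and show no binding. The 7 called genes with a single site are printed below because they went in both directions, 5′ to 3′ on the gene's strand, with the single sites or the paired form in capitals. The first 4 were called higher and the last 3 lower in sh-APP. Tctn1 (chr12:39970602-39970631, plus strand), Nphp4 (chr5:168271062-168271091, plus) and Bbs2 (chr19:10915578-10915607, plus) hold it after the start. Tctn2 (chr12:37668036-37668095, minus), Tekt1 (chr10:57479122-57479181, minus), Bbs5 (chr3:74818580-74818639, plus) and Ift88 (chr15:35688927-35688986, plus) hold it within the 60 bases before the start, which are shown.
Tctn1: gctgtgactGTTGCCCGGCAACagacaggc
Tctn2: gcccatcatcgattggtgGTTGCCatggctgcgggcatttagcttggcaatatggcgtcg
Nphp4: tggtgcattccgGTTGCCagctgaagttcg
Tekt1: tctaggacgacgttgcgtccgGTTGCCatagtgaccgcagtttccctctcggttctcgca
Bbs5: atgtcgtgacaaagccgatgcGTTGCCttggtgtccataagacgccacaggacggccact
Bbs2: tatccgctgctaGGCAACcggcctgccaag
Ift88: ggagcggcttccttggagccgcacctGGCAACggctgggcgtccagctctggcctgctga

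The first comparison asks what the hairpin against the amyloid precursor gene changed. In sh-APP against control 13 of the 42 cilium genes rose and 9 fell (edgeR's quasi-likelihood test, adjusted p under 0.05), while 53.7% of all 14445 tested genes passed (25.8% higher, 27.9% lower). The members' share (52.4%) lies near that background and is no result about the group. In bulk RNA, fewer cells of a type and less RNA per cell cannot be told apart. By role, the 3 IFT-A subunits with Ift names and 3 of 4 radial spoke genes rose. So did 4 of 5 transition zone genes with Tctn or Nphp names. Of 6 BBSome subunits 3 fell and none rose, and of 11 IFT-B subunits 4 fell and 2 rose. The median log2 fold change was 0.39 for IFT-A, 0.37 for the transition zone, 0.62 for radial spokes, -0.22 for the BBSome and -0.20 for IFT-B, against 0.03 over all tested genes. With library totals in place of the composition factors 17 members were called higher and 7 lower, and the median of all tested genes moved from 0.03 to 0.23. Without 1 library at a time the counts ran from 7 to 13 higher and from 6 to 9 lower; the count of higher calls was 8 without control replicate 1, 7 without control replicate 2 and 8 without sh-APP replicate 1. In all 16 alternatives 10 of the 22 calls held: Ift74, Ift57, Ift80, Bbs7 and Bbs5 among those lower, and Ift140, Tctn1, Tctn2, Nphp4 and Rsph9 among those higher.

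**Figure D1:**
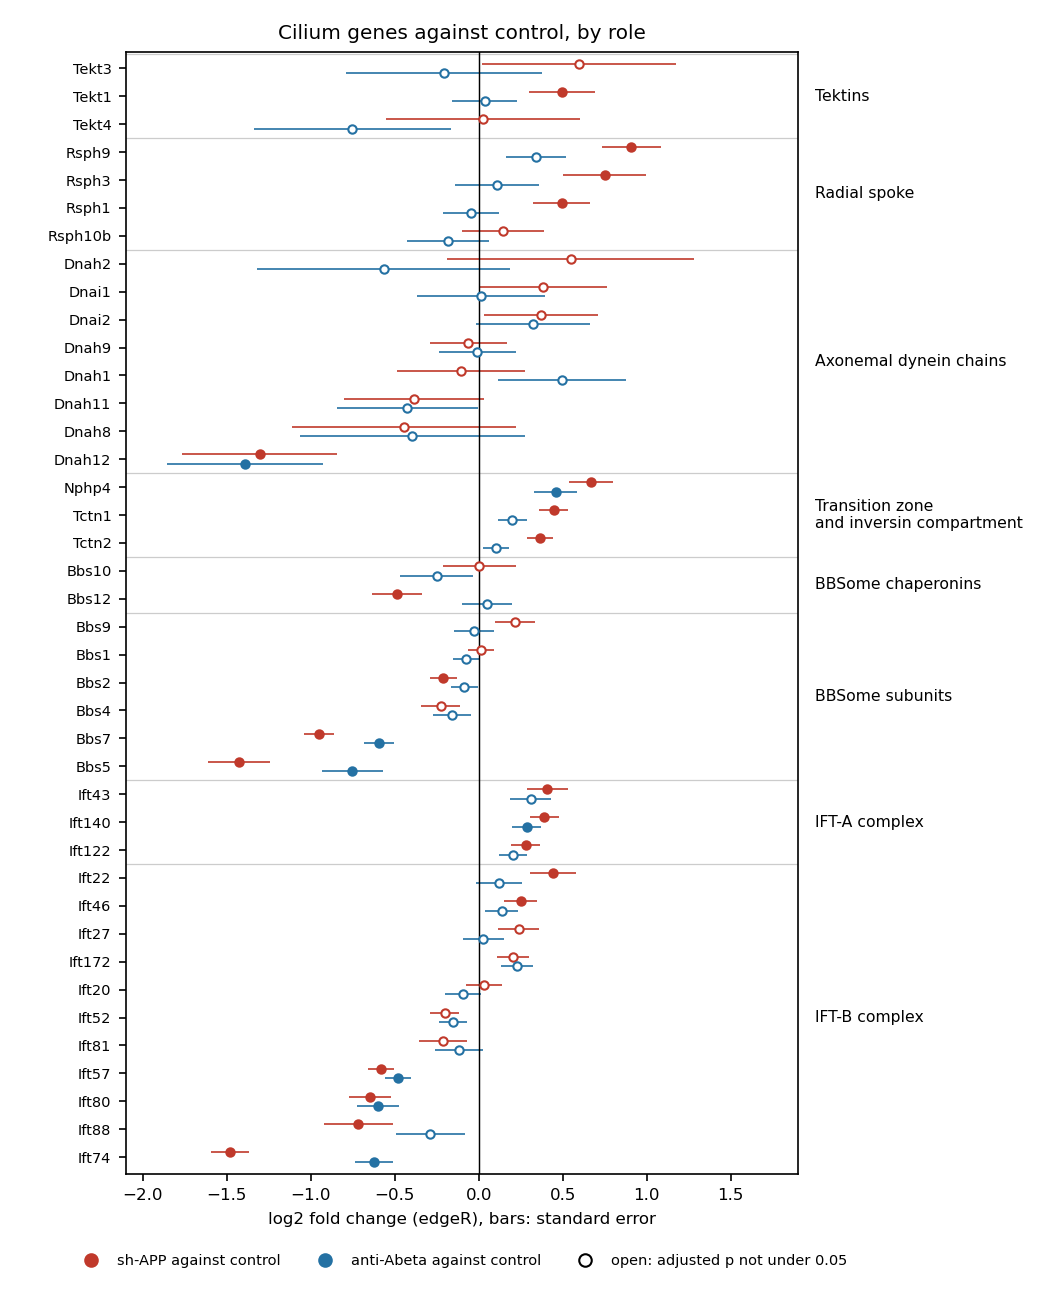
Log2 fold change of 40 cilium genes against control (x axis) in sh-APP (red) and anti-Abeta (blue), with standard errors as bars, ordered by role on the y axis. Filled points passed an adjusted p of 0.05. Ift74, Bbs5 and Bbs7 lie furthest below 0 among the primary cilium genes in sh-APP, and both arms are set against the same 2 control libraries.

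In the IFT-B complex, Ift74 pairs with Ift81 in the core of the train. Ift74 stood at 106 and 96.8 CPM in control, at 34.4, 36.8 and 37.4 in sh-APP and at 56.4, 76.9 and 63.8 in anti-Abeta. The 3 groups did not overlap, with control highest and sh-APP lowest. Such a lack of overlap with control was common, in 1 direction or the other: it held for 70.7% of all tested genes in sh-APP and for 54.9% in anti-Abeta. Between the arms 41.3% of all tested genes did not overlap, and the share with all 3 groups apart was not counted. The log2 fold change of Ift74 in sh-APP was -1.48 ± 0.11 (SE, adjusted p = 4.08e-06, edgeR). Ift81 did not pass (-0.21 ± 0.14, adjusted p = 0.228). The ratio of Ift74 to Ift81 counts was 2.85 and 3.26 in control against 1.16 to 1.44 in sh-APP, a description of a pair chosen after its values were seen. Ift74 overlaps Lrrc19 and Mir872 on the chromosome.

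The peripheral IFT-B subunits Ift57 and Ift80 fell as well. Ift57, which helps to bind the kinesin motor, stood at 82.1 and 75.6 CPM in control, against 54.3, 51.5 and 52.5 in sh-APP. Its fold change was -0.58 ± 0.08 (adjusted p = 6.31e-05). Ift80, mutated in a skeletal ciliopathy, stood at 51.4 and 44.2 CPM in control, against 27.9, 34.5 and 29.1 in sh-APP (-0.65 ± 0.12, adjusted p = 0.000788). For both genes every sh-APP library lay below both control libraries, and 70.7% of all tested genes had no overlap between these groups. Ift88, a core subunit needed for cilia to form, stood at 24.3 and 25.4 CPM in control, against 17, 15.2 and 13.1 in sh-APP (-0.72 ± 0.21, adjusted p = 0.0106). That call was lost without control replicate 1 (adjusted p = 0.0510) or 2 (0.0695).

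Ift22 and Ift46 were the IFT-B members that rose. Ift22, a small GTPase-like subunit, was called at 0.44 ± 0.14 (adjusted p = 0.0170), a call lost without control replicate 1 (0.115). Ift46, which carries dynein arms into the cilium, was called at 0.25 ± 0.10 (adjusted p = 0.0451), and its call was lost without control replicate 2 (0.290), sh-APP replicates 1 (0.0959), 2 (0.0675) or 3 (0.0986), or anti-Abeta replicates 1 (0.0550) or 3 (0.0531). Ift46 also lost its call with DESeq2 size factors (0.0564), with no low-count filter (0.0758) and with the replicate block (0.0825). Ift52 (-0.20), Ift172 (0.20), Ift27 (0.24), Ift81 and Ift20 (0.03) did not pass, with adjusted p from 0.0611 to 0.822.

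The 3 IFT-A subunits with Ift names, Ift140, Ift122 and Ift43, serve the return transport and the entry of membrane receptors. Ift140 stood at 44.5 and 46.1 CPM in control, at 57.6, 56.2 and 64.2 in sh-APP and at 55.3, 57.6 and 52.8 in anti-Abeta. Ift43 stood at 13.7 and 12.6 CPM in control, against 17.9, 16.3 and 18.3 in sh-APP. Ift122 stood at 49.9 and 51.8 CPM in control, against 65.7, 59.8 and 59.8 in sh-APP. For each of the 3, all libraries of both arms lay above both control libraries; the shares of all tested genes without overlap were 70.7% in sh-APP and 54.9% in anti-Abeta. The fold changes in sh-APP were 0.39 ± 0.09 for Ift140 (adjusted p = 0.00234), 0.41 ± 0.12 for Ift43 (0.0135) and 0.28 ± 0.09 for Ift122 (0.0148). Without control replicate 2 the call of Ift43 was lost (0.0874), and without control replicate 1 (0.0992) or sh-APP replicate 1 (0.0568) that of Ift122. Ift140 overlaps Tmem204.

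Among the 6 BBSome subunits, Bbs7 and Bbs5 had the largest fold changes in sh-APP. Bbs7, which pairs with Bbs2, stood at 59.6 and 56.9 CPM in control, at 28, 30.7 and 31.4 in sh-APP and at 37.1, 40.8 and 38.0 in anti-Abeta. Bbs5, a subunit that binds membrane lipids, stood at 22.6 and 25.6 CPM in control, at 8.85, 10.4 and 7.62 in sh-APP and at 18.2, 11.8 and 13.0 in anti-Abeta. In both genes the 3 groups did not overlap, in the same order as for Ift74. How many of all tested genes had 3 groups apart was not counted. Taken in pairs, 70.7% had no overlap between sh-APP and control, 54.9% between anti-Abeta and control and 41.3% between the arms. The fold changes in sh-APP were -0.95 ± 0.09 for Bbs7 (adjusted p = 6.92e-06) and -1.43 ± 0.18 for Bbs5 (adjusted p = 4.94e-05).

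Bbs2 had a smaller fold change than its partner. It stood at 65.0 and 58.5 CPM in control, against 52.6, 54.1 and 53.1 in sh-APP (-0.21 ± 0.08, adjusted p = 0.0415). Its call was lost without control replicate 1 (0.336), any sh-APP replicate (0.0974, 0.0685 and 0.0890) or anti-Abeta replicate 1 (0.0518), and with library totals alone (0.949). Bbs2 also lost its call with no low-count filter (0.0723) and with the replicate block (0.114). The ratio of Bbs7 to Bbs2 counts was 0.917 and 0.972 in control and 0.533 to 0.591 in sh-APP. That pair was chosen after its values were seen. Bbs4 stood at 50.1 and 42.5 CPM in control, against 42.7, 38.0 and 38.0 in sh-APP, which overlap (-0.23 ± 0.11, adjusted p = 0.116). Bbs9 (0.22 ± 0.12, adjusted p = 0.147) and Bbs1 (0.02 ± 0.08, adjusted p = 0.884) did not pass. Of the chaperonins that assemble the BBSome, Bbs12 stood at 13.0 and 11.4 CPM in control, against 8.07, 9.67 and 8.31 in sh-APP (-0.49 ± 0.15, adjusted p = 0.0141), and its call was lost without control replicate 1 (0.130) and with library totals alone (0.124). Bbs10 stood at 7.09 and 4.51 CPM in control, against 6.61, 5.12 and 5.68 in sh-APP, a difference of 0.00 ± 0.22 (adjusted p = 0.996).

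**Figure D2:**
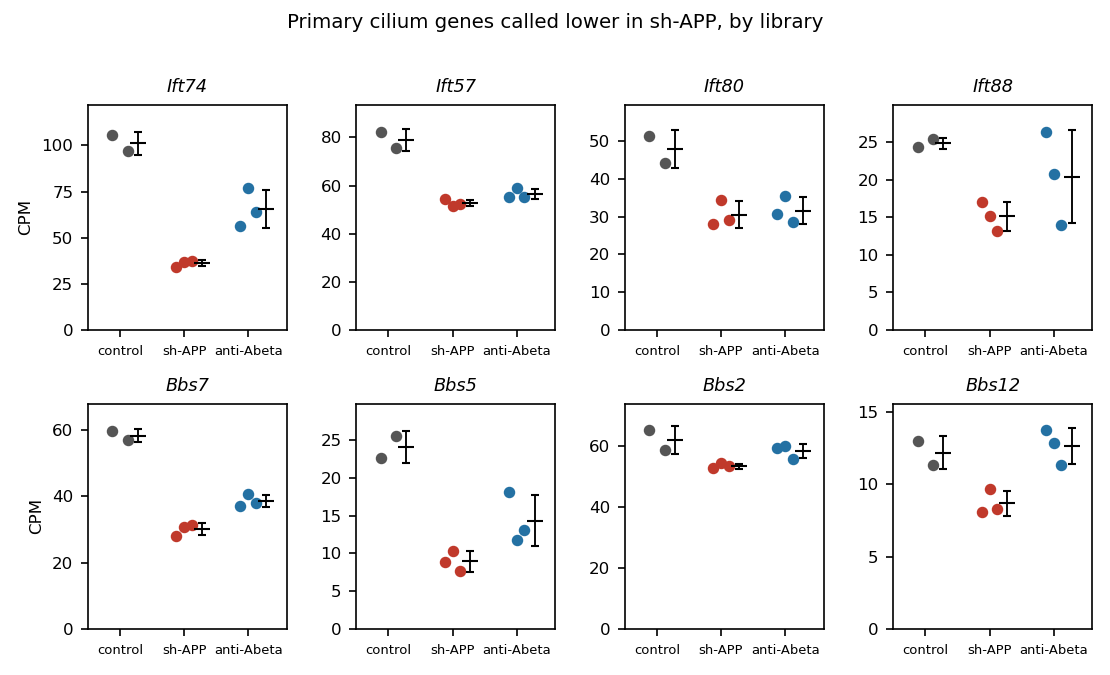
CPM (y axis, from 0) of the 8 primary cilium genes called lower in sh-APP, in each library of the 3 groups (x axis); bars are the mean and SD. In Ift74, Bbs7 and Bbs5 the anti-Abeta libraries lie between control and sh-APP, while in Bbs12 they lie at 11.3 to 13.7 CPM, around the control libraries.

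The transition zone genes with Tctn or Nphp names went the other way, while those under other names were mixed, as given below. Tctn1 and Tctn2, tectonics of the gate complex, stood at 39.7 and 42.4 CPM and at 75.6 and 74.2 CPM in control. In sh-APP Tctn1 stood at 56.4, 52.6 and 58.9 and Tctn2 at 101, 92.1 and 96.1 CPM. Nphp4, a nephrocystin, belongs to a further module of the gate. It stood at 15.8 and 17.2 CPM in control, against 26.2, 24.2 and 28 in sh-APP. All sh-APP libraries lay above both control libraries in these 3 genes. Of all tested genes, 70.7% had sh-APP and control libraries that did not overlap, in 1 direction or the other. The fold changes were 0.45 ± 0.09 for Tctn1 (adjusted p = 0.000827), 0.37 ± 0.08 for Tctn2 (0.00185) and 0.67 ± 0.13 for Nphp4 (0.000871). Tctn3 had no count in any library, which at this depth allows up to 0.0611 to 0.0856 CPM from counting error alone. Nphp4 overlaps Kcnab2 and Tctn1 overlaps Hvcn1.

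**Figure D3:**
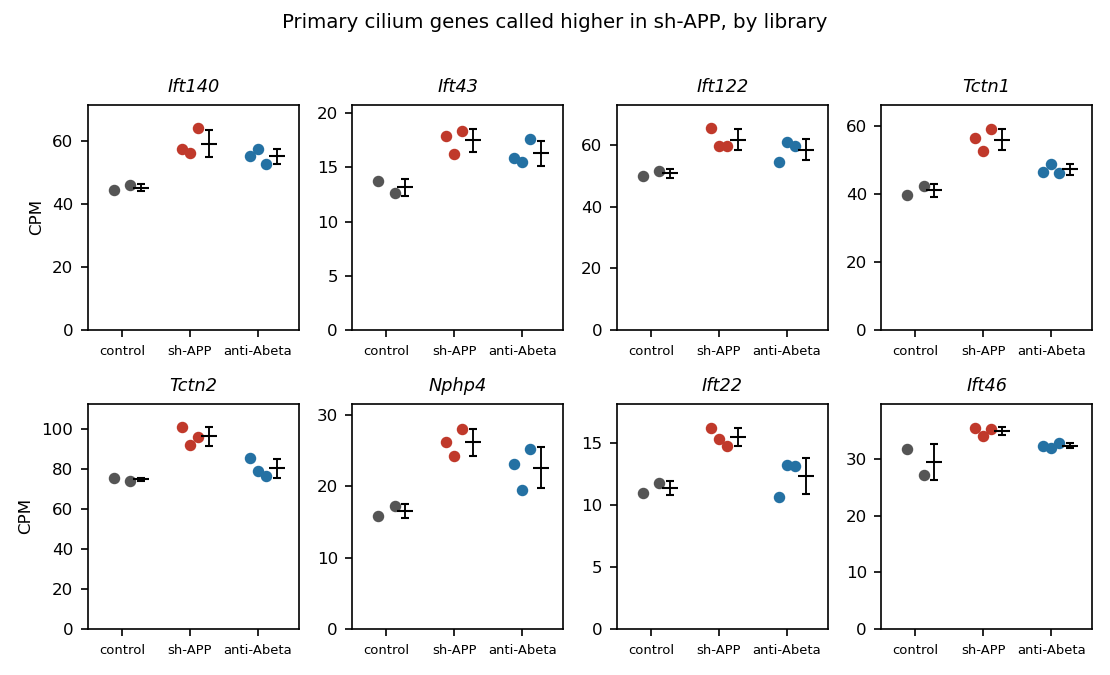
CPM (y axis, from 0) of 8 of the 9 primary cilium genes called higher in sh-APP, in each library of the 3 groups (x axis); bars are the mean and SD. All sh-APP libraries lie above both control libraries in each panel, as for Tctn2 at 92.1 to 101 CPM against 74.2 and 75.6. These groups did not overlap for 70.7% of all tested genes.

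Genes of the motile axoneme were present at few counts and spread more. The median coefficient of variation between sh-APP libraries was 17.1% for the 15 motile genes and 6.27% for the 27 primary cilium genes, and the median SE of the fold change was 0.38 and 0.11. Of the 15, 4 rose and 1 fell in sh-APP, a share of 33.3% against 53.7% of all tested genes. The radial spoke, which links the central pair of the axoneme to the outer doublets, held 3 of the 4. Rsph9 stood at 6.51 and 7.45 CPM in control, against 12.7, 13.2 and 13.5 in sh-APP. Its fold change was 0.91 ± 0.18 (adjusted p = 0.000940). Rsph3, which anchors a kinase to the spoke, stood at 2.50 and 2.67 CPM in control, against 4.54, 4.03 and 4.49 in sh-APP (0.75 ± 0.25, adjusted p = 0.0222). Rsph1, a spoke head protein, stood at 6.39 and 6.53 CPM against 9.17, 8.40 and 9.73 (0.49 ± 0.17, adjusted p = 0.0253). No sh-APP library of these genes reached down to control, and 70.7% of all tested genes had no overlap between these groups. Leaving out control replicate 1 ended the calls of Rsph3 and Rsph1 (adjusted p = 0.115 and 0.106), as did leaving out control replicate 2 (0.0708 and 0.0770), sh-APP replicate 1 (0.0534 for both) or sh-APP replicate 3 (0.0547 and 0.0767); 1 spoke gene was then called. The replicate block also ended the calls of Rsph3 (0.0506) and Rsph1 (0.0559). Rsph10b stood at 2.81 and 2.73 CPM in control, against 2.90, 2.96 and 3.32 in sh-APP and did not pass (0.14 ± 0.24, adjusted p = 0.649). Rsph1 overlaps Slc37a1.

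Tektins are filaments inside the doublet microtubules. Tekt1 stood at 7.45 and 8.53 CPM in control, against 11.8, 9.97 and 12.1 in sh-APP (0.49 ± 0.20, adjusted p = 0.0494). This call was lost without control replicate 1 (0.247) or 2 (0.0866) and sh-APP replicate 1 (0.103) or 3 (0.122). Tekt3 stood at 0.250 and 0.756 CPM in control, against 0.753, 0.965 and 0.572 in sh-APP, and Tekt4 at 0.639 and 0.837 against 1.14, 0.815 and 0.298. These groups overlap, and neither gene passed (adjusted p = 0.412 and 0.976).

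Of the 8 axonemal dynein chains described, the motors that bend the axoneme, only Dnah12 was called in sh-APP by edgeR. Dnah12, an inner arm heavy chain, stood at 1.42 and 3.92 CPM in control, at 1.21, 1.22 and 0.801 in sh-APP and at 1.06, 1.42 and 0.591 in anti-Abeta. Control replicate 2 stood apart from all other libraries. Without it the call (-1.31 ± 0.46, adjusted p = 0.0306) was lost (0.613), as it was without sh-APP replicate 3 (0.0927). Dnah12 also lost its call with limma-voom (0.0557) and with the replicate block (0.0723). The intermediate chain Dnai2 stood at 1.81 and 3.38 CPM in control, against 4.29, 2.83 and 2.95 in sh-APP. Dnai1 stood at 1.00 and 1.32 against 1.89, 1.33 and 1.33. Dnah11 stood at 1.58 and 2.16 CPM against 1.32, 1.26 and 1.72. These 3 did not pass (adjusted p from 0.387 to 0.466), nor did Dnah1, Dnah2, Dnah8 and Dnah9 (0.561 to 0.839).

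**Figure D4:**
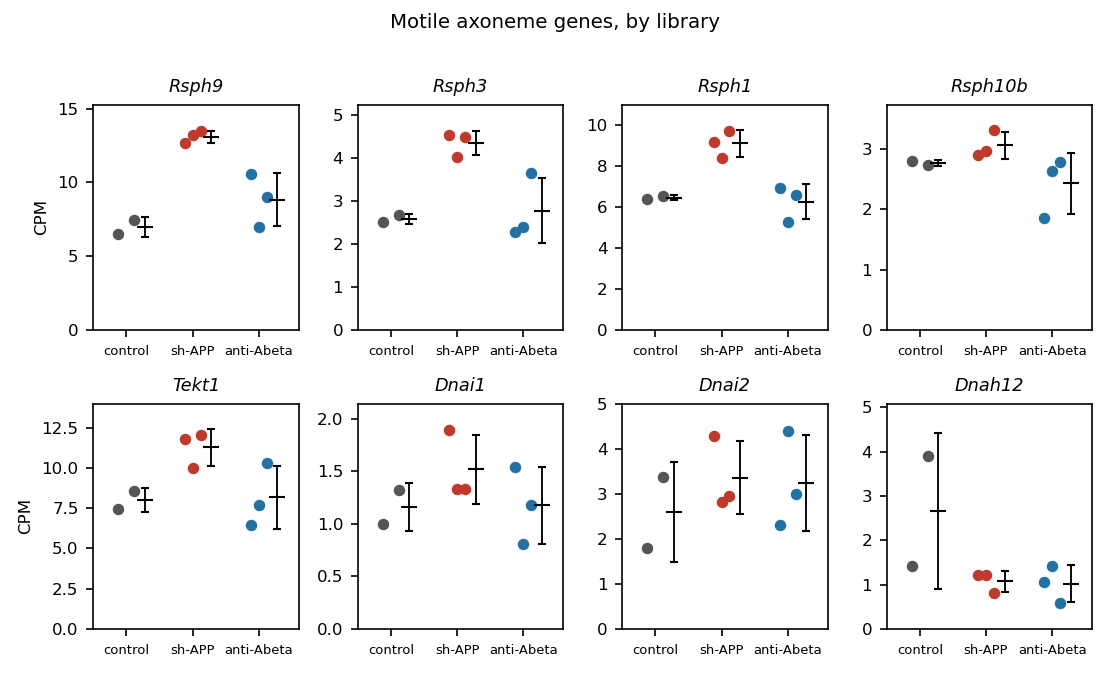
CPM (y axis, from 0) of 8 motile axoneme genes in each library of the 3 groups (x axis); bars are the mean and SD. Rsph9, Rsph3 and Rsph1 are highest in the sh-APP libraries, and the high mean of Dnah12 in control comes from control replicate 2 at 3.92 CPM.

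The count threshold left out 10 of the 52 rows. Just inside it, Dnah2 had 4 to 39 counts per library and Dnah8 7 to 31, with 151 in all for each. Just outside it, Tekt2, Rsph6a and Dnah7 had 0 to 9 counts per library and Dnah17 0 to 6. Dnah5 had 14 counts over all libraries, Dnah6 9, Tekt5 4 and Dnah3 1. Rsph4a, like Tctn3, had none. The dynein heavy chains Dnah5, Dnah9 and Dnah11 belong to outer arms, and of these Dnah5 was near 0 while Dnah9 had 92 to 138 counts in every library.

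The next comparison asks what the antibody against amyloid beta changed. In anti-Abeta against control 2 of the 42 genes rose and 6 fell, against a background of 29.2% called among all 14445 (12.7% higher, 16.6% lower). The members' share was 19.0%. The 6 that fell were Ift74, Ift57, Ift80, Bbs7, Bbs5 and Dnah12, and the 2 that rose were Ift140 and Nphp4. The log2 fold changes were -0.62 ± 0.11 for Ift74 (adjusted p = 0.00356), -0.48 ± 0.08 for Ift57 (0.00256), -0.60 ± 0.12 for Ift80 (0.00577), -0.59 ± 0.09 for Bbs7 (0.00226) and -0.75 ± 0.18 for Bbs5 (0.0114). Ift57 stood at 55.1, 58.9 and 55.3 CPM in anti-Abeta and Ift80 at 30.7, 35.4 and 28.6, all below both control libraries. Of all tested genes, 54.9% had no overlap between these groups. Ift140 was called at 0.29 ± 0.09 (0.0289) and Nphp4, at 23.1, 19.5 and 25.1 CPM, at 0.46 ± 0.13 (0.0213). Dnah12 was called at -1.39 ± 0.47 (0.0417), although 1 anti-Abeta library and the lower control library both stood at 1.42 CPM.

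In this arm the calls of Bbs7 and Ift57 held in all 16 alternatives. Those of Ift74 (adjusted p = 0.0634) and Ift80 (0.0871) were lost without control replicate 1, and that of Bbs5 without control replicate 1 (0.0669) or 2 (0.0796). Ift140 lost its call without control replicate 1 (0.199) or 2 (0.0901) and anti-Abeta replicate 1 (0.0639) or 2 (0.0659). Nphp4 lost its call without control replicate 1 (0.175) or 2 (0.0622) and anti-Abeta replicate 1 (0.0524) or 3 (0.0724). Dnah12 lost its call without control replicate 1 (0.0518) or 2 (0.574), sh-APP replicate 2 (0.0506), and anti-Abeta replicate 1 (0.0815) or 3 (0.122). The count of higher members was 0 without either control library or anti-Abeta replicate 1, 1 without anti-Abeta replicate 3, and 9 with library totals alone, and the count of lower members was 2 without control replicate 1.

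Tctn1, Tctn2, Ift43 and Ift122 did not pass in anti-Abeta but had values above control. Tctn1 stood at 46.6, 48.9 and 46.1 CPM (0.20 ± 0.09, adjusted p = 0.0988) and Tctn2 at 85.7, 79.0 and 76.8 (0.10 ± 0.08, 0.353). Ift43 stood at 15.8, 15.5 and 17.6 CPM (0.31 ± 0.12, 0.0780) and Ift122 at 54.7, 61.2 and 59.9 (0.20 ± 0.09, 0.0913). In each of these 4 genes all anti-Abeta libraries lay above both control libraries. That is so for 54.9% of all tested genes in 1 direction or the other. Ift88 ranged from 14.0 to 26.3 CPM between the anti-Abeta libraries, which overlap both other groups. None of the 4 radial spoke or 3 tektin genes was called in this arm by edgeR, by limma-voom or, where it gave an adjusted p (not for Tekt3 and Tekt4), by DESeq2; at an unadjusted p under 0.05 edgeR gave 0 of them.

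The third comparison sets the arms against each other and uses no control library in its contrast. In sh-APP against anti-Abeta 5 of the 42 genes were higher and 4 lower, against a background of 26.1% called among all 14445 (10.1% higher, 16.0% lower). The members' share was 21.4%. Lower in sh-APP were Ift74 (-0.86 ± 0.10, adjusted p = 0.000582), Bbs7 (-0.36 ± 0.08, 0.00742), Bbs5 (-0.68 ± 0.17, 0.0128) and Bbs12 (-0.54 ± 0.13, 0.0117). Bbs12 stood at 13.7, 12.9 and 11.3 CPM in anti-Abeta, near control, and its fold change there was 0.05 ± 0.15. Higher in sh-APP were Tctn1 (0.25 ± 0.08, 0.0315), Tctn2 (0.26 ± 0.07, 0.0170), Rsph9 (0.57 ± 0.15, 0.0180), Rsph3 (0.64 ± 0.22, 0.0458) and Rsph1 (0.54 ± 0.15, 0.0193). The spoke genes stood in anti-Abeta at 10.6, 6.97 and 8.99 CPM for Rsph9, at 2.28, 2.40 and 3.65 for Rsph3 and at 6.94, 5.28 and 6.58 for Rsph1. Every sh-APP library of the 3 spoke genes lay above every anti-Abeta library, and 41.3% of all tested genes had arms that did not overlap.

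Ift57 and Ift80 did not differ detectably between the arms (-0.10 ± 0.07, adjusted p = 0.348, and -0.05 ± 0.11, adjusted p = 0.796), nor did the 3 IFT-A genes (0.08 to 0.10, adjusted p from 0.362 to 0.540). The calls of Ift74, Bbs7 and Bbs12 between the arms held in all 16 alternatives. Without sh-APP replicate 3 no member was called higher in sh-APP (Tctn1 0.125, Tctn2 0.0504, Rsph9 0.0569, Rsph3 0.116, Rsph1 0.0722), and Bbs5 lost its call (0.0545). Without sh-APP replicate 1 the count of higher members was 1, and it was 3 without anti-Abeta replicate 1 or 2. The call of Tctn2 was also lost without sh-APP replicate 1 (0.0760) or anti-Abeta replicate 3 (0.0534). That of Tctn1 was lost without sh-APP replicate 1 (0.0899) and anti-Abeta replicates 1 (0.0786) or 3 (0.0763). That of Rsph1 was lost without sh-APP replicate 1 (0.0568) or anti-Abeta replicate 2 (0.0605). Rsph3 kept its call in only 1 of the 8 fits that leave out a library, with adjusted p up to 0.131.

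Other genes of the cilium were read from lists chosen with earlier results of these data known. They hold, among others, subunits of the same complexes that carry other names, and are given for sh-APP against control, where the background was 53.7% called (25.8% higher, 27.9% lower). A share near these values is no result about a list. Of 10 IFT subunits under other names 4 fell and 0 rose, 40% called (DESeq2 and limma-voom called the same numbers; at an unadjusted p under 0.05, 4 were lower and 1 higher), with a median log2 fold change of -0.29. Ttc26, Hspb11 and Ttc30b, all of IFT-B, had fold changes of -0.76 ± 0.10, -0.83 ± 0.13 and -0.77 ± 0.13. The fourth was Wdr35 (-0.36 ± 0.09), picked after its values were seen; it belongs to IFT-A, as do Wdr19, Ttc21b and Ttc21a of this list, also named after their values were seen. Wdr19 (-0.24 ± 0.11, adjusted p = 0.0992), Ttc21b (-0.23 ± 0.15, 0.218) and Ttc21a (0.86 ± 0.39, 0.0859) did not pass in sh-APP, and Wdr19 fell in anti-Abeta (-0.37 ± 0.11, 0.0287). IFT-A as a whole thus held genes called in both directions. Ttc30b has a close copy in Ttc30a1, so reads may have been shared between them. Of 12 genes of the IFT motors 7 fell and 1 rose (66.7% called), but only 2 were called lower without control replicate 1 and 3 with library totals alone. Kifap3, the adaptor of kinesin-2, went from a mean of 203 to 106 CPM (-0.94 ± 0.09), and Dynll1, a light chain of dyneins, had -0.58 ± 0.09. Wdr34, an intermediate chain of dynein-2, rose by 0.61 ± 0.09.

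Of 10 BBSome and Bardet-Biedl proteins under other names 6 fell and 1 rose (70% called, against 53.7% of all tested genes), with a median of -0.48. Arl6, the GTPase that recruits the BBSome to membranes, went from a mean of 112 to 49.0 CPM (-1.19 ± 0.10). Lztfl1, which regulates BBSome traffic, had -1.13 ± 0.10 and the chaperonin Mkks -0.75 ± 0.10. In anti-Abeta these 3 had -0.71 ± 0.10, -0.62 ± 0.10 and -0.44 ± 0.10. Each of the 3 was lower in sh-APP than in anti-Abeta too (adjusted p = 0.00304, 0.00259 and 0.0281).

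The 24 tested transition zone and nephronophthisis proteins under other names were mixed, with 5 higher and 9 lower (58.3% called, near the background of 53.7%). Iqcb1 (nephrocystin 5) had -1.24 ± 0.14, Cspp1 -1.0 ± 0.14 and Cep290, which bridges microtubules and membrane at the gate, -1.44 ± 0.21. Each of these 3 fell, where Tctn1, Tctn2 and Nphp4 rose. Without control replicate 1 the count of higher transition zone genes on this list was 2. Of 32 genes of centriolar appendages and ciliary membrane traffic 7 rose (4 without control replicate 1) and 17 fell, 75% in all, with a median of -0.49. Exoc5 of the exocyst had -1.26 ± 0.10, Rab28 -1.06 ± 0.10, and Sclt1, of the distal appendages that dock the centriole, -1.53 ± 0.14.

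Of 19 tested Hedgehog genes 9 rose and 3 fell, a share of 63.2% against 53.7% of all tested genes; without control replicate 1 these counts were 5 and 1, and without sh-APP replicate 1 the lower count was 1. Gas1, a coreceptor, rose from a mean of 64.6 to 134 CPM (1.06 ± 0.12), and Smo, the Smoothened receptor, by 0.49 ± 0.08, while Efcab7, which tethers a ciliary complex that passes on the signal, had -1.54 ± 0.14. Ptch1, picked after its values were seen as a target gene of the pathway, had -0.08 ± 0.10 (adjusted p = 0.569), and Gli1 had 20 counts in all libraries together. Of 10 tested ciliary receptors and enzymes 3 rose and 1 fell (40%). The polycystins Pkd1 (0.44 ± 0.12) and Pkd2 (-0.56 ± 0.13) moved apart, and Galr3, a galanin receptor, was called higher (means of 0.815 and 2.77 CPM). Of 24 tubulins and tubulin modifiers 10 rose and 2 fell, a share of 50% that lies near the background of 53.7%, among them Tpgs1 of the polyglutamylase complex (0.99 ± 0.10), Tuba4a (0.83 ± 0.10) and Tubb4b, a tubulin of axonemes (0.51 ± 0.07).

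**Figure D5:**
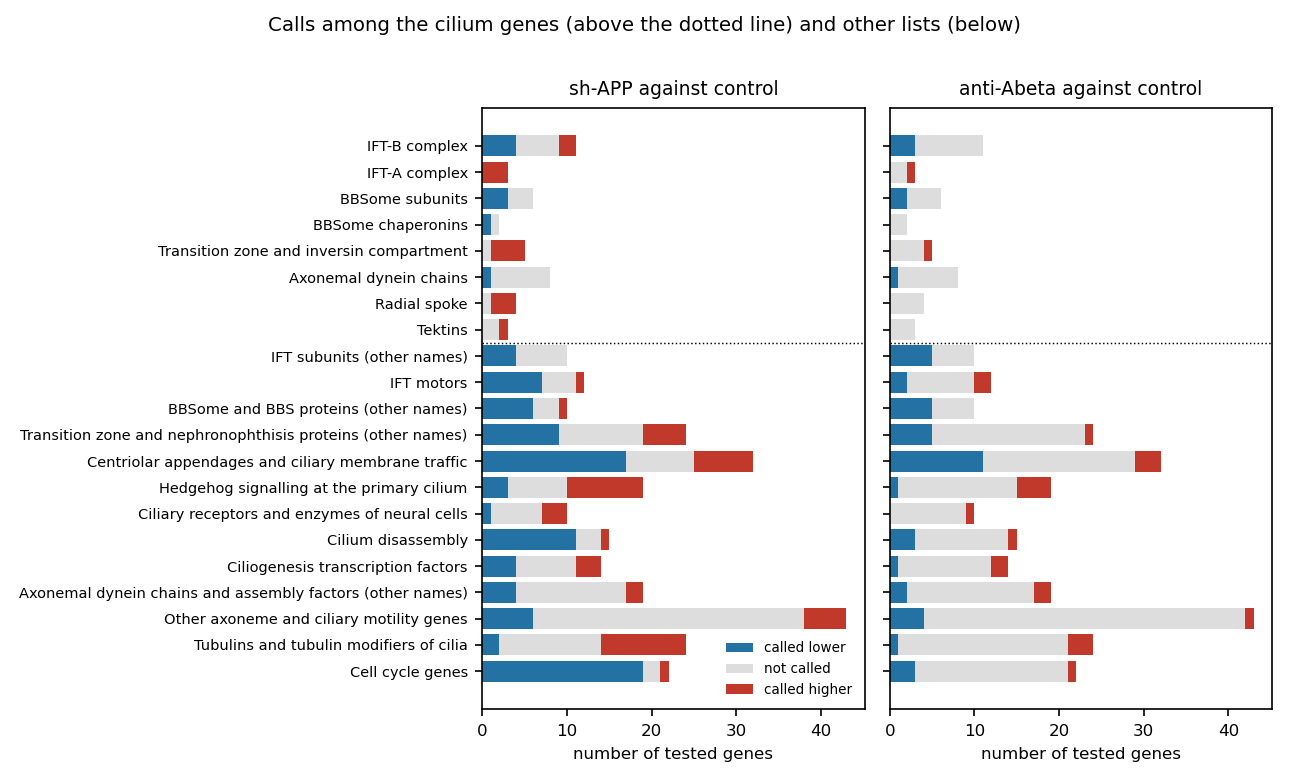
Number of tested genes (x axis) called lower (blue), not called (grey) and called higher (red) by edgeR in sh-APP (left) and anti-Abeta (right) against control, for the 8 roles of the members (above the dotted line) and 13 cilium and cell cycle lists (below it). In sh-APP all 3 IFT-A members with Ift names were called higher, while Wdr35 of IFT-A, in a list below the line, was called lower. Of 32 appendage and traffic genes 17 fell and 7 rose, and of 22 cell cycle genes 19 fell and 1 rose. The background share called in sh-APP was 53.7%, made up of 25.8% up and 27.9% down.

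Of 15 tested genes linked to cilium disassembly, 1 rose and 11 fell in sh-APP (80% called, against 53.7% of all tested genes), with a median of -0.75. Dynlt3 had -1.43 ± 0.16, and the mitotic kinases Ttk and Plk4 had -2.09 ± 0.24 and -1.81 ± 0.28. Many of these genes serve mitosis as well. Cell cycle genes moved as well: of 22, 1 rose and 19 fell in sh-APP (90.9%), and their summed level was 3166 to 3378 CPM in control, 1689 to 2151 in sh-APP and 2877 to 3521 in anti-Abeta. Tyms, Bub1 and Ccna2 had fold changes of -1.55 ± 0.14, -2.21 ± 0.21 and -2.09 ± 0.22. Their part in the cilium results was not tested.

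Of 14 tested ciliogenesis transcription factors 3 rose and 4 fell (50%, near the background of 53.7%). Rfx2, which binds the X-box, rose from a mean of 17.1 to 33.2 CPM (0.96 ± 0.13) and was called in anti-Abeta too (0.60 ± 0.13). E2f5 had -1.04 ± 0.13 and Gmnn, geminin, -1.26 ± 0.22. Gmnc, which starts the multiciliated programme, had no count in any library, and Mcidas had 4 in all. Among motile genes under other names, 2 of 19 dynein chains and assembly factors rose and 4 fell (31.6%), and 5 of 43 other axoneme genes rose and 6 fell (25.6%), both shares below that background. Wdr78 had -0.71 ± 0.15, Dnal1 -0.61 ± 0.14, Dnaaf5 0.42 ± 0.10, Cfap97 -0.88 ± 0.12, Ccdc39 -0.82 ± 0.12 and Cfap36 -0.54 ± 0.08. Without control replicate 1, 2 of the dynein chains and assembly factors were called lower and 3 of the other axoneme genes higher; without control replicate 2 the latter count was 3 as well.

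Markers of other cell types are given next. Their calls are for sh-APP against control, where 53.7% of all tested genes were called (25.8% higher, 27.9% lower). The share was 28.6% for ependymal, 63.6% for neuronal and 66.7% for melanocyte markers, from 7, 11 and 6 tested genes. Of 7 tested ependymal markers 1 rose (Rarres2, a secreted protein, picked after its values were seen) and 1 fell (Ccdc39). Their summed level was 27.2 to 29.7 CPM in control, 22.1 to 24.9 in sh-APP and 21.1 to 23.3 in anti-Abeta, below every control library in both arms. Most of the control sum was Ccdc39, so the lower sums cannot be read as a fall of the ependymal markers in general. Neuronal markers, of which 3 of 11 rose and 4 fell, summed to 336 to 360 CPM in control, 153 to 165 in sh-APP and 228 to 292 in anti-Abeta, with Slc17a6 at 0. Melanocyte markers, of which 1 of 6 rose and 3 fell, summed to 4373 to 4453, 2282 to 2487 and 3580 to 3872 CPM, nearly all of it Gpnmb. Oligodendrocyte lineage markers, of which 1 of 10 rose and 2 fell, summed to 2673 to 2785, 3150 to 3307 and 3150 to 3495 CPM. Their median log2 fold change in sh-APP was 0.01. Markers of choroid plexus, a ciliated epithelium, summed to 1.47 to 1.49 CPM in control, 2.40 to 2.82 in sh-APP and 1.31 to 1.91 in anti-Abeta, with Kl and Otx2 at 0; Folr1, picked after its values were seen, had the lowest p of the 3 tested (adjusted p = 0.0509 in sh-APP against control, edgeR). Microglial markers summed to 0.135 to 0.417, 1.19 to 2.20 and 0.758 to 0.970 CPM, with Cx3cr1 at 0 and 1 of 2 tested called higher in sh-APP. Both sums were higher in every sh-APP library than in every control library. Of all tested genes, 70.7% had no overlap between these groups, in 1 direction or the other. Astrocyte markers moved too. Their sum was 16899 to 17471 CPM in control, 18719 to 21687 in sh-APP and 14999 to 16308 in anti-Abeta. Of the 13 markers, 9 rose and 1 fell in sh-APP, a share of 76.9% against the 53.7% given above. With the antibody 4 rose and 3 fell, a share of 53.8% where the background was 29.2%. The part of any of these cell types in the cilium results was not tested.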

How the data were processed

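RNA-seq of rat astrocytes was measured in 8 libraries of 3 groups. The authors deposited raw counts per gene symbol, whole numbers with no normalization. Per the submitters' processing notes, which give no role or order, the tools were STAR 2.6.0a, HTSeq 0.11.1, Trimmomatic 0.36, FastQC 0.11.7, SAMtools 1.9 and DESeq2 1.24.0, and the build was rn6. No source used here gives the strand or the annotation. The count model was edgeR 4.0.16 under R 4.3.3, fitted once to all 8 libraries with the 3 groups as coefficients. It used filterByExpr (minimum count 10, minimum total 15), TMM factors, robust quasi-likelihood tests and Benjamini-Hochberg adjustment over 14445 genes, with a threshold of 0.05. CPM were counts scaled by TMM-adjusted totals, with the SD over libraries, and each SE was taken as the absolute log2 fold change over the root of its F statistic. All 42 described genes were tested. Library totals of 34250464 to 47831595 make counting error small for primary cilium genes and larger for the low motile genes.

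Values in every library are given for up to 4 members of each role with the smallest p in sh-APP against control and for each member called in another comparison; up to 3 called genes are named per list. Members and lists were chosen with earlier results of these data known. Alternatives were DESeq2 1.42.0, voom of limma 3.58.1, other scaling factors, other filters, fits on 2 groups at a time, a block for the replicate number, and the omission of each library. The tests were checked on simulated data. In those data few genes changed, as many up as down, so the scaling was not checked against a broad shift. All 42 genes matched a RefSeq gene table (GRCr8, a later assembly than rn6, used for names, neighbours and promoters), and 20 overlap another gene there, so their counts are less certain. Some members enter the counts and are not reported here by name. No explanation was tested.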

Additional observations from a re-analysis of the deposited data

How the results depend on the processing

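The counts by role rest on few libraries, above all on 2 control libraries, and low counts limit the motile genes. In anti-Abeta against control the number of members called higher was 9 with library totals in place of composition factors, against 2 as reported, so 60% of the calls were then higher and not 25%; in sh-APP against control that share went from 59.1% to 70.8%. The median of all genes moved to 0.18 and 0.23 under that scaling. Without 1 library at a time, members called higher numbered 7 to 13 in sh-APP and 0 to 3 in anti-Abeta against control, and 0 to 4 in sh-APP against anti-Abeta; members called lower in anti-Abeta numbered 2 to 6. The cause of these shifts was not tested.

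Correlations gave little sign that the replicate numbers pair the libraries, but do not settle it. Deviations of same-numbered libraries correlated at -0.01 to 0.11 over 7 pairs, 1 of them over 0.1, and those of other pairs at -0.11 to 0.03. The highest were both same-numbered, between sh-APP and anti-Abeta (0.105 for replicates 1 and 0.0984 for replicates 2). The control libraries deviate as mirror images of each other, so their pairs are not independent. With the replicate block 9 members were called higher and 7 lower in sh-APP against control. These counts were 1 and 5 in anti-Abeta against control, and 5 and 5 in sh-APP against anti-Abeta. The block ended the calls of Ift140 (adjusted p = 0.0678) and Dnah12 (0.0669) in anti-Abeta, and of Tctn1 between the arms (0.0524). Dnah12 in anti-Abeta also lost its call with limma-voom (0.0581) and with only the groups compared (0.0615). Rsph3 between the arms lost its call with no low-count filter (0.0502) and with only the groups compared (0.0519). The block also turned the uncalled log2 fold changes of Bbs10 in sh-APP (-0.000218), and of Rsph3 (-0.036) and Tekt1 (-0.10) in anti-Abeta.

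The other turns of direction were in differences that no test called. In sh-APP against control Bbs10 came to -0.0118 with DESeq2 and with its size factors, and Tekt4 to -0.16 with limma-voom. In anti-Abeta against control Dnai1 came to -0.00400 with DESeq2 size factors, -0.00434 with DESeq2 and -0.0362 with limma-voom. With library totals Bbs2 (0.0644) and Rsph1 (0.11) turned in anti-Abeta, and Ift80 (0.0064) between the arms. Without 1 library at a time the sh-APP values ran from -0.27 to 0.37 for Bbs10, -0.000773 to 0.91 for Dnai2 and -0.40 to 0.40 for Tekt4. The anti-Abeta values ran from -0.0457 to 0.14 for Bbs12, -0.54 to 0.10 for Bbs10, -0.0666 to 0.84 for Dnai2, -0.22 to 0.23 for Dnai1, -0.14 to 0.23 for Rsph3, -0.12 to 0.0494 for Rsph1, -0.17 to 0.17 for Tekt1 and -0.80 to 0.79 for Tekt3. Between the arms they ran from -0.15 to 0.0642 for Ift80, -0.12 to 0.0302 for Bbs4, -0.16 to 0.35 for Dnai2, -0.25 to 0.57 for Dnah11 and -0.20 to 0.43 for Dnah12.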
